A study of Bos taurus with 50 samples.

Results

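The comparison described here is week 9 against week 5 postpartum in the endometrium of dairy cows whose ovaries were already luteal at week 5. Its members were chosen by label alone: the 20 libraries of the CycW5 cows, which were cycling under progesterone (P4) at week 5, were taken out of the 50 libraries of the series, 10 at week 5 and 10 at week 9. The cows were first-lactation animals of Holstein x Jersey admixture. At week 5 they had a corpus luteum (CL) and circulating P4 from a spontaneous cycle, and the day of that cycle is not given. Before week 9 all cows received gonadotropin-releasing hormone with a P4-releasing vaginal insert, prostaglandin F2α when the insert was removed, and a second gonadotropin-releasing hormone injection, so that week 9 was day 13 of the cycle. Biopsies were taken through the cervix from the uterine horn on the side of the CL. NoCycW5 cows, 12 libraries at week 5 and 11 at week 9, had no CL and no detectable P4 up to week 5 and received the same synchronization. They entered the model as further groups, whereas the 7 libraries of a smaller group (CycNoP4), cycling but no longer under P4 at week 5, were not used here. The sources used here do not say which libraries came from the same cow, so the comparison was unpaired and P values measure the spread between libraries. Week, the hormone treatment, the day of the cycle and the order of the sample-sheet numbers, which run through every week 5 library before the first week 9 library, cannot be told apart in this design.

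P4 from the CL converts the endometrium, made up of luminal and glandular epithelium, stroma and vessels, to a secretory state that feeds the early conceptus. As P4 exposure goes on, its own receptor declines in the epithelium and a further set of epithelial genes for secreted proteins and transporters comes on. Estrogen receptor and oxytocin receptor are held low through this phase, and their return precedes the prostaglandin release that ends the cycle.

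Between 25131393 and 32813237 reads per library were assigned to genes at week 5, and between 21592867 and 32453713 at week 9. No library was a repeat of another: the mean chi-square per gene was at least 32.7 over the 190 pairs of the 20 libraries, where sampling noise alone gives about 1. Levels are given as TMM-normalized CPM (counts of a gene scaled to a common library size), and each library carries the number of its title. The libraries of both weeks were uneven. The distance of a library from the mean of the other 9 libraries of its week, as the root mean square over genes of the difference in log2 CPM, was 0.51 to 0.81 at week 5 and 0.55 to 1.23 at week 9. Library 57 was the farthest at week 5, and libraries 89 (1.23), 87 (1.04) and 72 (0.74) were the farthest at week 9. The mean distance was 0.603 ± 0.092 (SD, n = 10) at week 5 and 0.725 ± 0.23 (SD, n = 10) at week 9, a difference of 0.122 that did not pass a two-sided permutation test (P = 0.148, 100000 resamples). It was 0.051 without library 89 (permutation P = 0.54). Without library 96 or 98 it was 0.151 and 0.153 and passed (permutation P = 0.0466 and 0.0471).

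Among the genes that varied most within a week, several for secreted proteins and transporters divided the libraries of each week. IGFBP1, an insulin-like growth factor binding protein, was at 180, 78.1 and 205 CPM in week 5 libraries 13, 66 and 70, at 7.58 CPM in library 12 and at 0.0386 to 0.363 CPM in the other 6. At week 9 it was at 41 to 180 CPM in 7 libraries, at 11.8 CPM in library 87, at 0.373 CPM in library 89 and at 0 in library 72. MEP1B, a metallopeptidase subunit, was at 295 to 474 CPM in libraries 13, 66 and 70 and at 1.62 to 23.6 CPM in the other 7 week 5 libraries. Week 9 libraries 87 (2.62 CPM) and 72 (14.8 CPM) lay within the range of these 7, and the other 8 were at 138 to 729 CPM. The zinc transporter gene SLC39A2 divided the libraries in the same way at week 5, with 53.9 to 58.4 CPM in libraries 13, 66 and 70 and 0.854 to 5.1 CPM in the rest. PENK, the precursor of enkephalin peptides, was at 2280 to 3290 CPM in the same 3 week 5 libraries and at 38.9 to 879 CPM in the other 7. At week 9 it was at 2410 to 5720 CPM in 7 libraries and at 280, 21.3 and 1.97 CPM in libraries 72, 89 and 87. Thus in these 4 genes 3 week 5 libraries carried the level of most week 9 libraries, and library 72 carried that of most week 5 libraries or less. LY6G6C, of the LY6 family, was at 72.5 CPM in library 72, in the middle of the week 9 range of 0.492 to 123 CPM. CYP26A1, among the most variable genes of both weeks, did not divide the week 5 libraries this way. It was at 60, 76.4 and 284 CPM in libraries 13, 66 and 70, and at 47.8 and 42.7 CPM in libraries 12 and 45. The summed level of the epithelium markers was 2060, 1960 and 2340 CPM in libraries 13, 66 and 70 and 900 to 1820 CPM in the other week 5 libraries. It was 1070 and 734 CPM in libraries 87 and 89 and 1480 to 2280 CPM in the other week 9 libraries, and its part in the split was not tested.

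Libraries 57 and 87 stood apart in other genes, in which they were near the level of the NoCycW5 cows at week 5. LRP2, an endocytic receptor of epithelium, was at 3.53 CPM in week 5 library 57 and at 37.2 CPM in week 9 library 87, against 35 to 938 CPM in the other week 5 libraries and 355 to 1830 CPM in the other week 9 libraries. In the NoCycW5 cows at week 5 LRP2 had a range of 1.02 to 38.8 CPM. CAMK2B, a subunit of a calcium-dependent kinase, was at 0.099 CPM in library 57 and 1.31 CPM in library 87, and the NoCycW5 cows at week 5 had 0.0393 to 2.23 CPM. AOX2, an aldehyde oxidase gene, was at 49.4 CPM in library 57 and 104 CPM in library 87, the highest of each week, and the NoCycW5 cows at week 5 had 6.99 to 282 CPM. The mRNA of the oxytocin receptor (OXTR) was also highest in these libraries, at 151 CPM in library 57 and 179 CPM in library 87, against 123 ± 42.7 CPM (SD, n = 12) in the NoCycW5 cows at week 5. So in these 4 genes libraries 57 and 87 lay at the end of their week nearest to the cows without a CL. Other libraries shared part of this: library 52 lay in that NoCycW5 range in LRP2 (35 CPM) and AOX2 (33.8 CPM), but not in CAMK2B (20.8 CPM). Libraries 45 and 72 lay in it in AOX2 (8.62 and 20.7 CPM), and library 72 had 110 CPM of OXTR. The synchronized NoCycW5 cows at week 9 also reached 9.77 CPM in LRP2, 0.385 CPM in CAMK2B and 163 CPM in AOX2. Whether libraries 57 and 87 came from endometrium not under P4 was not tested. The library labels were kept as given, and the value without 1 of these libraries is given where it changes a value below by more than 1.5 times.

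**Figure D1:**
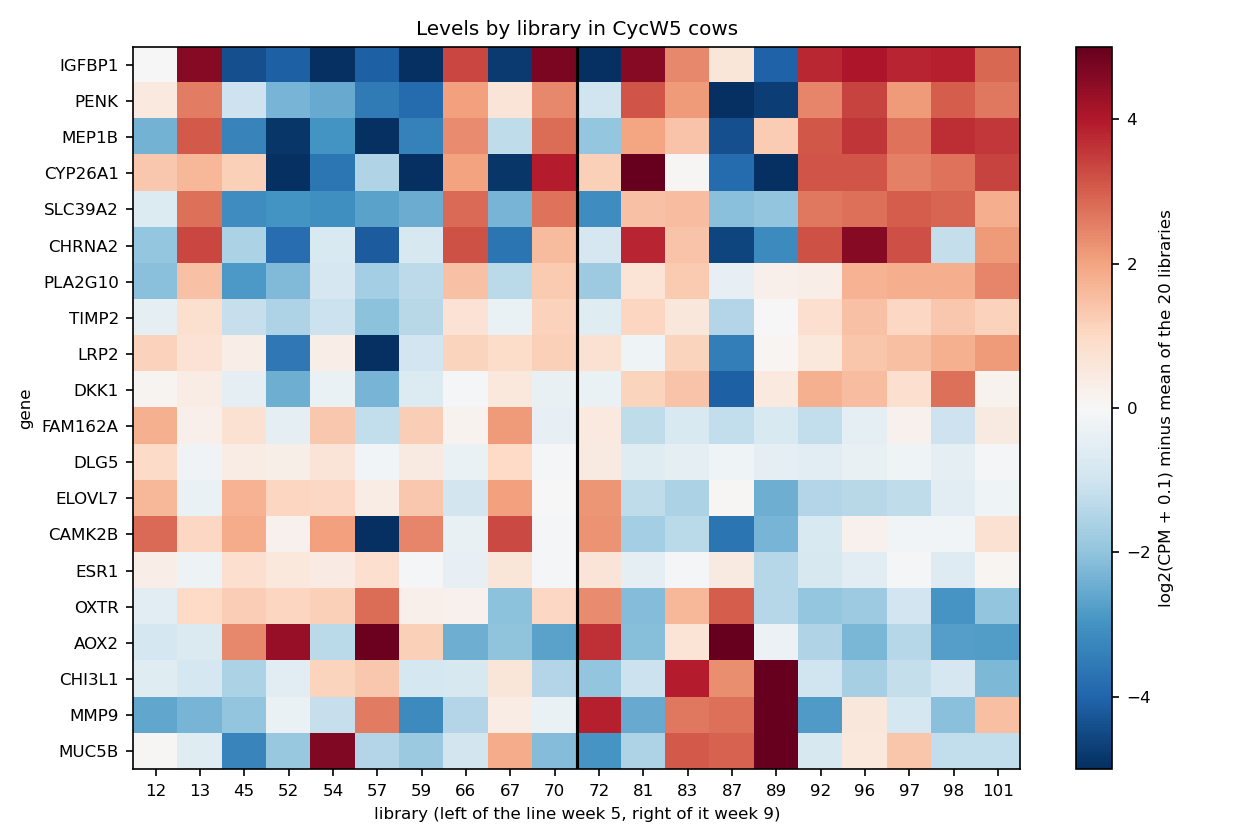
Levels of 20 genes (rows), all but MUC5B named in the text, in the 20 CycW5 libraries (columns, week 5 left of the line and week 9 right of it). Values are log2(CPM + 0.1) minus the mean of the 20 libraries, with red for higher and blue for lower. In the rows of IGFBP1, PENK, MEP1B, SLC39A2, PLA2G10 and TIMP2, libraries 13, 66 and 70 of week 5 carry the colours of most week 9 libraries. In these rows library 72 of week 9 carries those of most week 5 libraries or lower ones. The rows of CYP26A1 and LRP2 do not divide this way, and libraries 57, 87 and 89 stand apart in other rows.

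Of 15483 genes tested, 7 changed between week 5 and week 9, 2 of them higher and 5 lower at week 9. That is 0.0452% of the genes tested (edgeR quasi-likelihood test, Benjamini-Hochberg (BH) P at or under 0.05). All 7 had the same BH P of 0.0491. In no gene did the 10 libraries of week 9 lie entirely above or entirely below those of week 5, a share of 0% of the genes tested. An unadjusted P under 0.05 was found for 1443 genes that were higher at week 9 (9.32%) and for 761 that were lower (4.92%). The median size of the log2 fold change (log2FC, given below as week 9 minus week 5 ± its standard error) was 0.139 over all genes, with a median standard error of 0.159. In the NoCycW5 cows, which passed from no CL to day 13, 35.7% of the genes were called between the same weeks in the same fit, and the median size of the log2 fold change was 0.264 with a median standard error of 0.148. The calls in the CycW5 cows were not stable: none of the 7 was kept with DESeq2 size factors, limma-voom, no filter on low counts, or a fit of the 20 libraries alone. All 7 were kept among 235 genes called by the DESeq2 Wald test and among 3181 called by limma-voom with library quality weights, which weighted libraries 89, 87 and 72 least (0.18, 0.27 and 0.49).

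**Figure D2:**
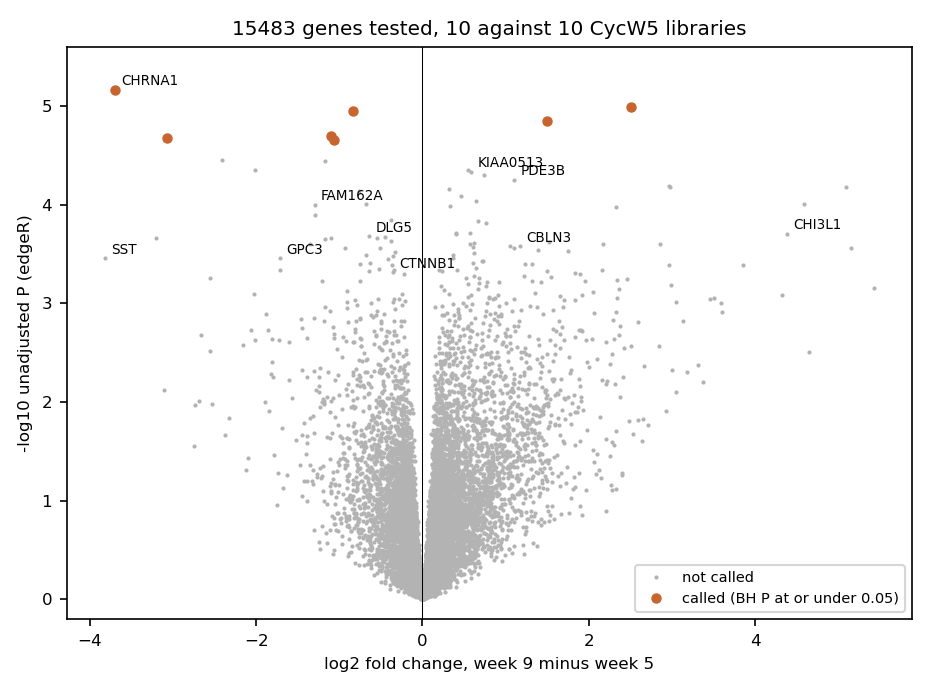
Each point is 1 of 15483 genes, with its log2 fold change (week 9 minus week 5) against the unadjusted P of the edgeR test on a −log10 scale. The 7 orange points are the genes called, 5 to the left and 2 to the right, and 10 genes named in the text are labelled.

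The called gene with a symbol was CHRNA1 (ENSBTAG00000018253), the alpha 1 subunit of the nicotinic acetylcholine receptor known from the muscle endplate. At week 5 its level was 0.152 CPM in library 12, 0.326 in library 13, 0.0777 in library 45, 8.71 in library 52, 2.62 in library 54, 0.858 in library 57, 10.9 in library 59, 0.0343 in library 66, 2.86 in library 67 and 0.44 in library 70. At week 9 it was 0.312 CPM in library 72, 0.21 in library 81, 0.0954 in library 83, 0.123 in library 87, 0.0415 in library 89, 0.186 in library 92, 0.134 in library 96, 0.191 in library 97, 0.667 in library 98 and 0.0456 in library 101. So the fall was made by 4 week 5 libraries above 2 CPM, and the other 6 lay in or near the week 9 range. The log2FC was -3.70 ± 0.72. RAPSN, which clusters this receptor at the endplate, was at 0.742 ± 0.422 CPM (SD, n = 10) at week 5 and 0.269 ± 0.172 CPM at week 9 (log2FC -1.45 ± 0.43, BH P = 0.118, edgeR). The other nicotinic subunit tested, CHRNA2, had a median of 0.99 CPM at week 5 and 8.33 CPM at week 9, with a range of 0.033 to 24.2 CPM and 0 to 56.4 CPM. The log2FC of CHRNA2 was 1.42 ± 1.03 (BH P = 0.543, edgeR), opposite in sign to that of CHRNA1. The nicotinic subunit list had 1 called member of 2 tested, against 0.0452% of all genes. That member was CHRNA1 itself, so the count is no result about the list.

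The other 6 called genes have no symbol in the sources used here and are given by their Ensembl identifiers. ENSBTAG00000008077 fell by 1.07 on the log2 scale (standard error 0.22). Its week 5 levels were 27, 28.8 and 33.2 CPM in libraries 57, 70 and 66, 50.2 CPM in library 13 and 81.1 to 153 CPM in the other 6. Its week 9 levels were 20.4 to 38.2 CPM in 9 libraries and 82.1 CPM in library 72. ENSBTAG00000032304 had the same arrangement: 43.5, 44.7 and 54.1 CPM in libraries 57, 70 and 66 and 67.5 to 141 CPM in the other week 5 libraries, against 38.6 to 54.2 CPM in 9 week 9 libraries and 81.1 CPM in library 72. Its log2FC was -0.83 ± 0.17. Both genes thus had 3 week 5 libraries at the week 9 level and library 72 at the week 5 level.

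ENSBTAG00000001367 fell by 1.1 on the log2 scale (standard error 0.23), from a median of 8.93 CPM (range 3.44 to 13.7) to a median of 4.13 CPM (range 2.65 to 6.97). All 10 week 9 libraries lay below the week 5 median. ENSBTAG00000003353 fell by 3.07 (standard error 0.64), from a median of 1.55 CPM to 0.464 CPM. It was at 24.3 CPM in week 5 library 67 and at 0.231 to 5.7 CPM in the other week 5 libraries, so that the week 9 range of 0.21 to 1.3 CPM overlapped the lower end of week 5.

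ENSBTAG00000012406 and ENSBTAG00000019017 were the called genes that rose, by 2.51 (standard error 0.50) and 1.5 (standard error 0.30) on the log2 scale. ENSBTAG00000012406 was at 5.14 to 22 CPM at week 5, and at week 9 at 426 CPM in library 89, 64.2 CPM in library 98, 40.1 CPM in library 92 and 8.4 to 26.3 CPM in the other 7. ENSBTAG00000019017 was at 11 to 33.6 CPM at week 5, and at week 9 at 203 CPM in library 89, 101 CPM in library 98, 61 CPM in library 92 and 14.4 to 43.9 CPM in the rest. The same 3 libraries were the highest in both genes. Without library 89 ENSBTAG00000012406 and ENSBTAG00000019017 had log2 fold changes of 1.13 and 1.03 (BH P = 0.195 and 0.154, edgeR).

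**Figure D3:**
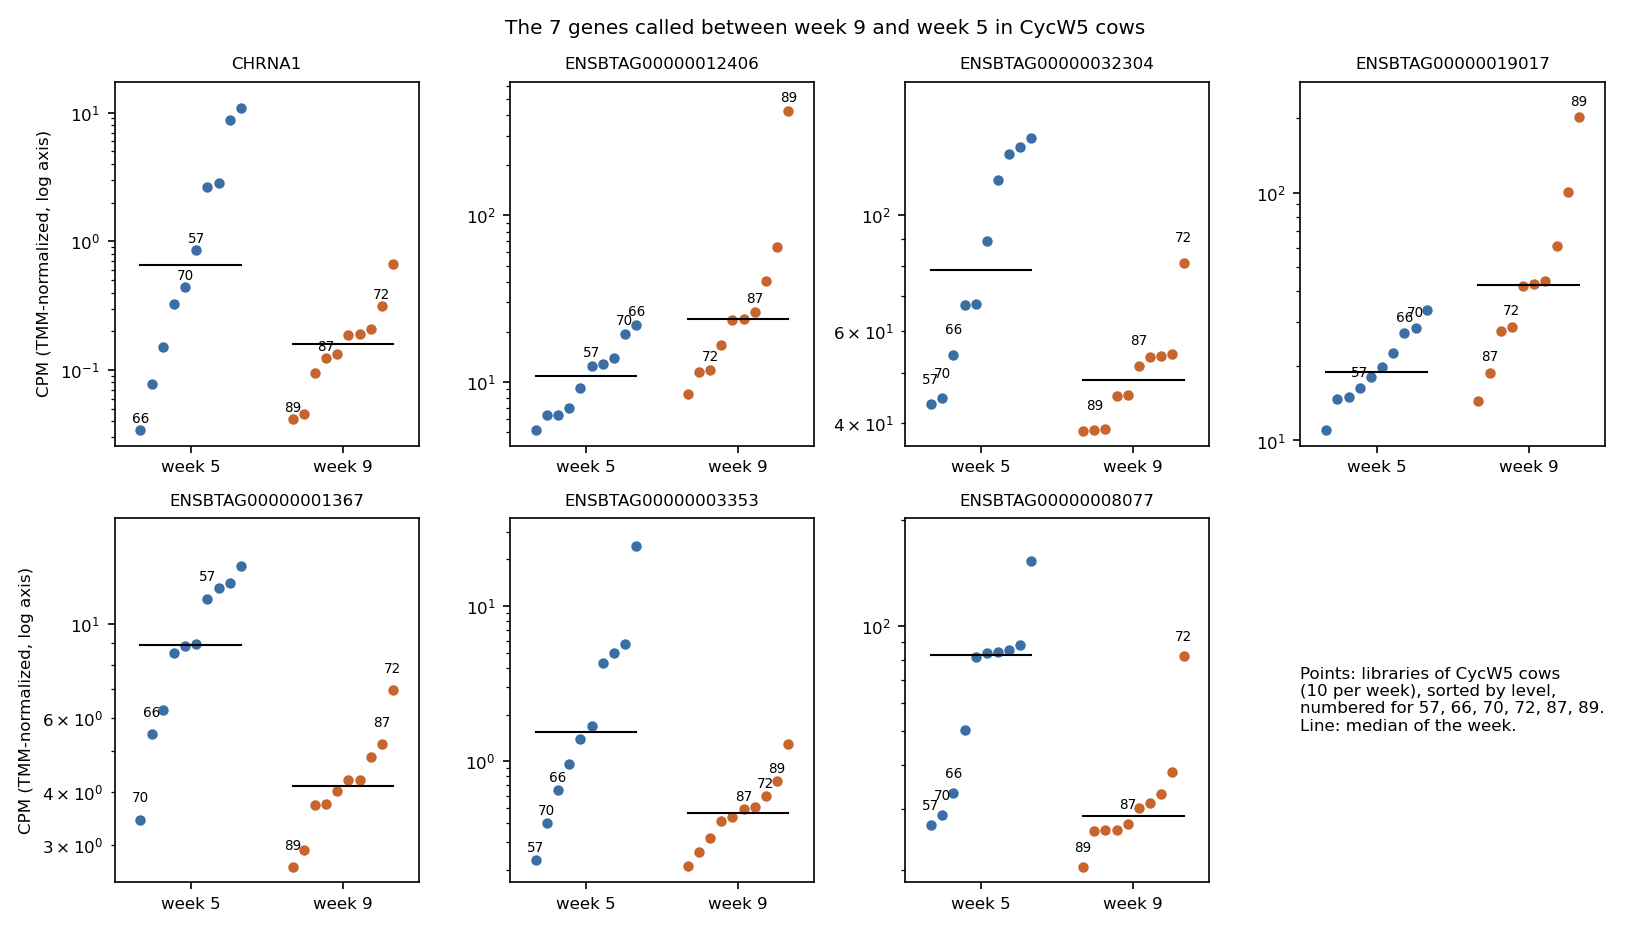
CPM on a log axis of the 7 called genes in each of the 20 CycW5 libraries, with a line at the median of the week. The groups overlap in all 7 panels, libraries 57, 66 and 70 lie low among week 5 libraries in 3 of the falling genes, library 72 is the highest week 9 library in 3 of them, and library 89 is the highest in both rising genes.

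Single libraries decided how many genes were called. Without library 72, 383 genes were called, which is 2.47% of 15528 tested, and without libraries 66, 70, 87, 13 and 57 the number was 148, 115, 58, 30 and 20. Each of these 6 fits kept the 7 genes. Without library 97 there were 2 calls, without libraries 12, 45 or 98 there was 1, and there was none without any of the other 10 libraries, 52, 54, 59, 67, 81, 83, 89, 92, 96 and 101. The 7 called genes and the 10 higher and 10 lower genes with a symbol and the smallest P make 26 genes. In these 26, library 70 was nearer to the mean of week 9 than to that of its own week in 21, library 66 in 20, and libraries 13 and 57 in 10 each, against 0 to 3 for the other 6 week 5 libraries. Library 72 was nearer to the mean of week 5 in 17, against 0 to 8 for the other 9 week 9 libraries. These genes were chosen on the same libraries, so the counts are a description.

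**Figure D4:**
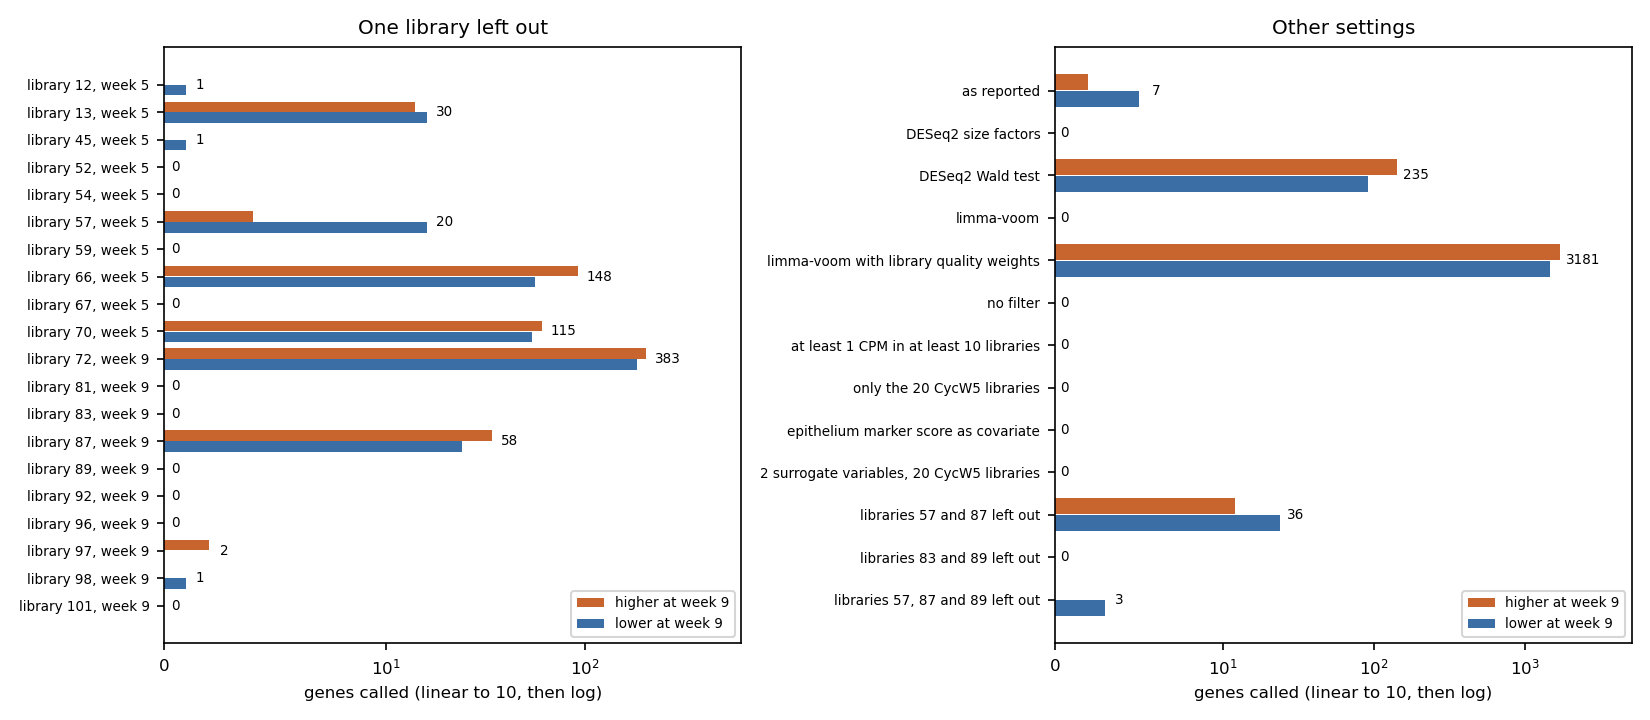
Number of genes called higher (orange) and lower (blue) at week 9, with the sum beside the bars, when 1 of the 20 libraries was left out (left panel) and under other settings (right panel), on an axis that is linear to 10 and logarithmic above. Leaving out library 72 gave 383 calls, 10 of the 20 libraries gave 0 when left out, and library quality weights gave 3181.

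No gene with a symbol passed the test as higher at week 9. The 10 with the smallest P had BH P of 0.0586 to 0.0795. The steadiest of them was PTP4A2, a protein tyrosine phosphatase, at 132 to 167 CPM (median 154) at week 5 and 166 to 235 CPM (median 195) at week 9. The groups met at 166 and 167 CPM, so only library 70 of week 5 reached the week 9 range. Its log2FC was 0.34 ± 0.08 (BH P = 0.0625, edgeR). PDE3B, a phosphodiesterase that breaks down cyclic AMP, had a median of 19.9 CPM (range 9.12 to 37.1) at week 5 and 38.3 CPM (range 12.4 to 106) at week 9, a log2FC of 1.11 ± 0.25 (BH P = 0.0586). Its lowest week 9 library was 72 and its highest week 5 library was 70. ASAH1, acid ceramidase, had a median of 133 CPM (range 95.6 to 258) at week 5 and 259 CPM (range 155 to 342) at week 9, with libraries 13, 66 and 70 at 228 to 258 CPM and the other week 5 libraries at 142 CPM or less. The log2FC was 0.66 ± 0.16 (BH P = 0.0782). KIAA0513, UBALD2, MREG (melanoregulin, an organelle transport protein), OCIAD2 and BCAR3 (an adaptor protein of adhesion signalling) had log2 fold changes of 0.59, 0.64, 0.77, 0.57 and 0.62. UBALD2, PTP4A2, ASAH1, MREG and OCIAD2 were above the week 5 median in 10 of 10 week 9 libraries. The genes were picked for a small P on the same libraries, so this is a description. CBLN3, a cerebellin, was at 21.4 CPM in library 89 and at 1.89 to 6.42 CPM in the other week 9 libraries, with a log2 fold change of 1.18 that was 0.69 without library 89 (BH P = 0.263, edgeR). CHI3L1 is described with the inflammation genes.

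Among the 10 lower genes with a symbol and the smallest P, CHRNA1 was called and the other 9 had BH P of 0.0625 to 0.0869. FAM162A, a mitochondrial protein known from the response to low oxygen, had a median of 89.1 CPM (range 26.3 to 268) at week 5 and 36 CPM (range 25.3 to 86.2) at week 9 (log2FC -1.30 ± 0.30, BH P = 0.0625, edgeR). DLG5, a scaffold protein of cell polarity, was at 322 to 806 CPM at week 5. At week 9 it was at 260 to 387 CPM in 9 libraries and at 550 CPM in library 72, and the log2FC was -0.64 ± 0.16 (BH P = 0.0795). CTNNB1, which codes for beta-catenin of cell junctions and Wnt signalling, was at 660 to 1220 CPM at week 5 and 475 to 941 CPM at week 9 (log2FC -0.35 ± 0.09, BH P = 0.0869). Here too library 72 was the highest of week 9, and library 57 was the lowest of week 5. GPC3, a glypican of the cell surface, had a median of 7.57 CPM at week 5 and 2.11 CPM at week 9, with a range of 2.52 to 22.5 CPM and 0.89 to 5.97 CPM (log2FC -1.72). SST, which codes for somatostatin, was near the limit of detection, at 3.3 CPM in library 57, 0 to 0.311 CPM in the other week 5 libraries and 0 to 0.124 CPM at week 9. ARMT1, PDLIM4, SHQ1 (an assembly factor of box H/ACA ribonucleoproteins) and NT5C3B (a nucleotidase) had log2 fold changes of -0.45, -0.55, -0.38 and -0.42. FAM162A, ARMT1, PDLIM4, SHQ1, SST, GPC3 and NT5C3B were below the week 5 median in 10 of 10 week 9 libraries. This too is a description, since the genes were picked on the same libraries.

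Gene groups were followed by lists, whose members can be named only where the study had called the gene in some comparison. Of 721 genes in 30 lists 199 were tested, and apart from CHRNA1 none was called. Among all 2205 tested genes with a symbol, 8.66% had an unadjusted P under 0.05 and were higher at week 9 and 6.58% were lower, and their median log2 fold change was 0.038. In bulk tissue fewer cells of a type and less RNA per cell cannot be told apart.

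Of 25 hormone receptor genes 9 were tested, 4 with a positive and 5 with a negative log2 fold change (median -0.04), and 1 in each direction had an unadjusted P under 0.05. ESR1, the estrogen receptor, had a median of 106 CPM (range 62.3 to 147) at week 5 and 69.6 CPM (range 30.8 to 128) at week 9, with libraries 72 and 87 the highest of week 9 at 128 and 112 CPM. Its log2FC was -0.50 ± 0.25 (BH P = 0.346, edgeR). OXTR, the receptor through which oxytocin drives luteolytic prostaglandin release, was at 5.2 to 50.8 CPM at week 5 apart from library 57 (151 CPM). At week 9 it was at 2.67 to 11 CPM in 7 libraries and at 69.1, 110 and 179 CPM in libraries 83, 72 and 87. Its median was 43.6 CPM at week 5 and 7.01 CPM at week 9, whereas its log2 fold change, which follows the means of 45.4 and 40.2 CPM, was -0.18 (standard error 0.70, BH P = 0.935, edgeR). It was 0.26 without library 57 and -0.87 without library 87. With library quality weights OXTR and ESR1 were both called lower, with log2 fold changes of -1.78 and -0.65 (limma-voom BH P = 0.029 and 0.021). That setting called 3181 genes, among them 45 named genes that the main fit did not call, so these calls are not particular to the receptors. PAQR5, a membrane progestin receptor, had a median of 0.459 CPM at week 5 and 1.58 CPM at week 9 (log2FC 1.23 ± 0.42, BH P = 0.161). PGR, the nuclear P4 receptor, has no identifier in the sources used here.

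Of 32 progesterone-responsive endometrial genes 15 were tested, 11 with a positive and 4 with a negative log2 fold change (median 0.67, against 0.029 over all genes tested). An unadjusted P under 0.05 was found for 2 that were higher and 1 that was lower. DKK1, a secreted Wnt inhibitor, had a median of 17.7 CPM (range 4.12 to 32.7) at week 5 and 45.5 CPM (range 1.27 to 155) at week 9. Library 87 was the lowest of the 20, and 7 of the 10 week 9 libraries lay at or above 32.4 CPM. The log2FC was 1.54 ± 0.47 (BH P = 0.122, edgeR). TIMP2, a metalloproteinase inhibitor, was at 1300 to 1710 CPM in libraries 13, 66 and 70 and at 189 to 622 CPM in the other week 5 libraries. At week 9 it was at 280, 506 and 781 CPM in libraries 87, 72 and 89 and at 1170 to 2130 CPM in the other 7 (log2FC 0.91 ± 0.38, BH P = 0.261). LPL, lipoprotein lipase, had a median of 27.8 CPM (range 6.9 to 95.6) at week 5 and 13.1 CPM (range 4.94 to 40.6) at week 9, with library 72 the highest of week 9 (log2FC -1.11 ± 0.47, BH P = 0.266). The summed level of the 15 genes was 548 to 4030 CPM at week 5, lowest in library 57 and highest in library 70, and 724 to 4520 CPM at week 9, lowest in library 87. Without libraries 57 and 87 the list counted 3 higher and 1 lower at an unadjusted P under 0.05, against 10.5% and 6.71% of all genes. With library 89 also left out it counted 5 and 1, against 8.12% and 9.78%.

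Of 27 prostaglandin pathway genes 9 were tested and 1 had an unadjusted P under 0.05. This was PLA2G10, a secreted phospholipase that releases fatty acids from membranes, at 254 to 278 CPM in week 5 libraries 13, 66 and 70 and at 13.9 to 57.6 CPM in the other 7. Its week 9 level was 29 CPM in library 72, 75.8 CPM in library 87 and 122 to 549 CPM in the other 8 (log2FC 1.19 ± 0.55, BH P = 0.312, edgeR). Of 22 fatty acid, glyceride and sphingolipid genes tested, 12 had a positive and 10 a negative log2 fold change (median 0.08), and 3 in each direction had an unadjusted P under 0.05. Beside PLA2G10 and LPL these were ASAH1, SGMS1, ELOVL7 and SMPD3. SGMS1, a sphingomyelin synthase, was at 24.6 to 42 CPM at week 5 and 25.9 to 45.5 CPM at week 9 (log2FC 0.32), and SMPD3, a neutral sphingomyelinase, had a log2 fold change of -0.67 (BH P = 0.122 and 0.246, edgeR). ELOVL7, an elongase of fatty acids, was at 2.23 to 18.2 CPM at week 5, with libraries 66, 13 and 70 the lowest, and at 0.705 to 4.47 CPM in 9 week 9 libraries against 20.5 CPM in library 72 (log2FC -1.18 ± 0.44, BH P = 0.202). Without library 72 its log2 fold change was -2.07 and its BH P 0.00417. The 16 sterol synthesis genes tested had log2 fold changes from -0.26 to 0.43 (median 0.09), with 0 at an unadjusted P under 0.05 and 0 called.

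Of 61 inflammation and antimicrobial genes 14 were tested, 13 with a positive log2 fold change (median 0.86). An unadjusted P under 0.05 was found for 9 that were higher and 1 that was lower. The summed level of the tested genes was 1660 CPM in library 89 and 177 to 437 CPM in the other 19 libraries. CHI3L1, a chitinase-like protein made in inflamed tissue, was at 903 CPM in library 89, 75.2 CPM in library 83, 24.8 CPM in library 87 and 0.957 to 2.7 CPM in the other 7 week 9 libraries. Its median was 2.95 CPM at week 5 and 2.36 CPM at week 9, while its log2FC was 4.38 ± 1.07 (BH P = 0.0795, edgeR), and without library 89 it was 1.37. CSF3, the granulocyte colony-stimulating factor, was at 25.4 CPM in library 83, 5.97 CPM in library 89 and 0 to 0.35 CPM in the other week 9 libraries (log2FC 3.05 ± 1.09, BH P = 0.185, and 0.98 without library 83). Without libraries 83 and 89 the log2 fold changes were -0.04 for CHI3L1 and -1.57 for CSF3, the median of the list was -0.45, and 4 of its genes were higher and 2 lower at an unadjusted P under 0.05, against 5.85% and 4.72% of all genes. MMP9, a gelatinase that neutrophils carry and the neutrophil marker tested, was at 299 CPM in library 89, 26.3 CPM in library 72 and 0.149 to 11.8 CPM in the other week 9 libraries, with 0.0961 to 10.7 CPM at week 5 (log2FC 4.33 ± 1.2, BH P = 0.103, edgeR). Without library 89 the log2FC of MMP9 was 1.86 (BH P = 0.437).

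IL17RA and IL20RA differed less with library 89 left out. IL17RA, a subunit of the interleukin 17 receptor, was at 28.2 to 45.5 CPM (median 35.5) at week 5 and 39.5 to 64 CPM (median 45.4) at week 9. Libraries 13, 66 and 70 made up the upper end of week 5. Its log2FC was 0.36 ± 0.09 (BH P = 0.0848, edgeR), and 0.305 without library 89 (BH P = 0.229). IL20RA, a subunit of the interleukin 20 receptor, was at 4.02 to 7.82 CPM at week 5 and 5.4 to 14.1 CPM at week 9, highest in library 89 (log2FC 0.60 ± 0.19, BH P = 0.133, and 0.512 without that library). CXCL13, a chemokine that attracts B cells, was the member with the negative sign, with a median of 8.45 CPM (range 1.12 to 48.1) at week 5 and 2.76 CPM (range 0.436 to 17.7) at week 9 (log2FC -1.47 ± 0.71, BH P = 0.334). No interferon-stimulated gene and no macrophage marker of the lists could be matched to an identifier.

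Of 46 apoptosis genes 11 were tested, with a median log2 fold change of 0.17, and 3 were higher at an unadjusted P under 0.05. FAS, the death receptor, had a median of 34 CPM (range 25 to 61.6) at week 5 and 61.8 CPM (range 28.8 to 99.9) at week 9, with libraries 13, 66 and 70 the highest of week 5 and libraries 87 and 72 the lowest of week 9 (log2FC 0.72 ± 0.19, BH P = 0.085, edgeR). STK17A, a kinase linked to cell death, was at 186 CPM in library 89 and at 52.3 to 87.5 CPM in the other week 9 libraries, against 35.4 to 70.8 CPM at week 5 (log2FC 0.59 ± 0.17, BH P = 0.105). Without library 89 its log2FC was 0.35 (BH P = 0.308, edgeR). BFAR, an inhibitor of apoptosis, was at 306 to 404 CPM in libraries 13, 66 and 70 and at 109 to 146 CPM in the other week 5 libraries, and at week 9 at 122 CPM in library 72, 146 CPM in library 87 and 245 to 424 CPM in the other 8 (log2FC 0.61 ± 0.23, BH P = 0.20). The 3 genes, which do not all act the same way on cell death, had the same sign.

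Of 42 Wnt pathway genes 16 were tested, with a median log2 fold change of -0.13, and 1 was higher and 3 were lower at an unadjusted P under 0.05. The higher gene was DKK1, and the lower ones were CTNNB1 and the Wnt co-receptor genes ROR1 and ROR2, with log2 fold changes of -0.58 and -0.47 (BH P = 0.305 and 0.244, edgeR). ROR2 was highest in library 57 at 69.2 CPM, against 24.3 to 48.2 CPM in the other week 5 libraries and 17.1 to 34.4 CPM at week 9. Of 29 epithelial transcription factor genes 11 were tested, with a median of 0.23. The 2 with an unadjusted P under 0.05 were both lower: FOXA3, a forkhead factor, at 3.22 to 8.22 CPM at week 5 and 1.75 to 5.12 CPM at week 9, and MSX2, a homeobox factor, with a median of 1.96 CPM at week 5 and 1.22 CPM at week 9. Their log2 fold changes were -0.81 and -0.89 (BH P = 0.118 and 0.269). That of MSX2 was -0.59 without library 57 and -1.24 without library 87. Of 47 extracellular matrix genes 18 were tested, with a median of 0.04, and MMP9 and TIMP2 were the 2 with an unadjusted P under 0.05.

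Of 40 nutrient transporter genes 18 were tested, 9 in each direction (median 0.03). SLC22A4, of solute carrier family 22, and SLC38A7, a glutamine transporter, had log2 fold changes of 0.63 and 0.52 (BH P = 0.266 and 0.301, edgeR). SLC7A2, a transporter of cationic amino acids, had -0.83 (BH P = 0.236, edgeR). The transcripts of the mitochondrial genome that could be matched, ND3 and CYTB of the respiratory chain, were both lower at week 9. CYTB was at 2590 to 5000 CPM (median 4020) at week 5. Its week 9 level was 1560 to 2350 CPM in libraries 81, 92, 96, 97, 98 and 101 and 3100 to 4720 CPM in libraries 72, 83, 87 and 89. Its log2FC was -0.49 ± 0.18 (BH P = 0.201) and that of ND3 was -0.47 (standard error 0.16, BH P = 0.155). FOSL2, of the immediate early list, had a log2FC of 0.50 ± 0.17 (BH P = 0.159), and it was the 1 of 4 tested there with an unadjusted P under 0.05. Of the cell cycle and circadian clock lists 2 and 4 genes were tested, with medians of 0.16 and -0.02 and 0 at an unadjusted P under 0.05.

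**Figure D5:**
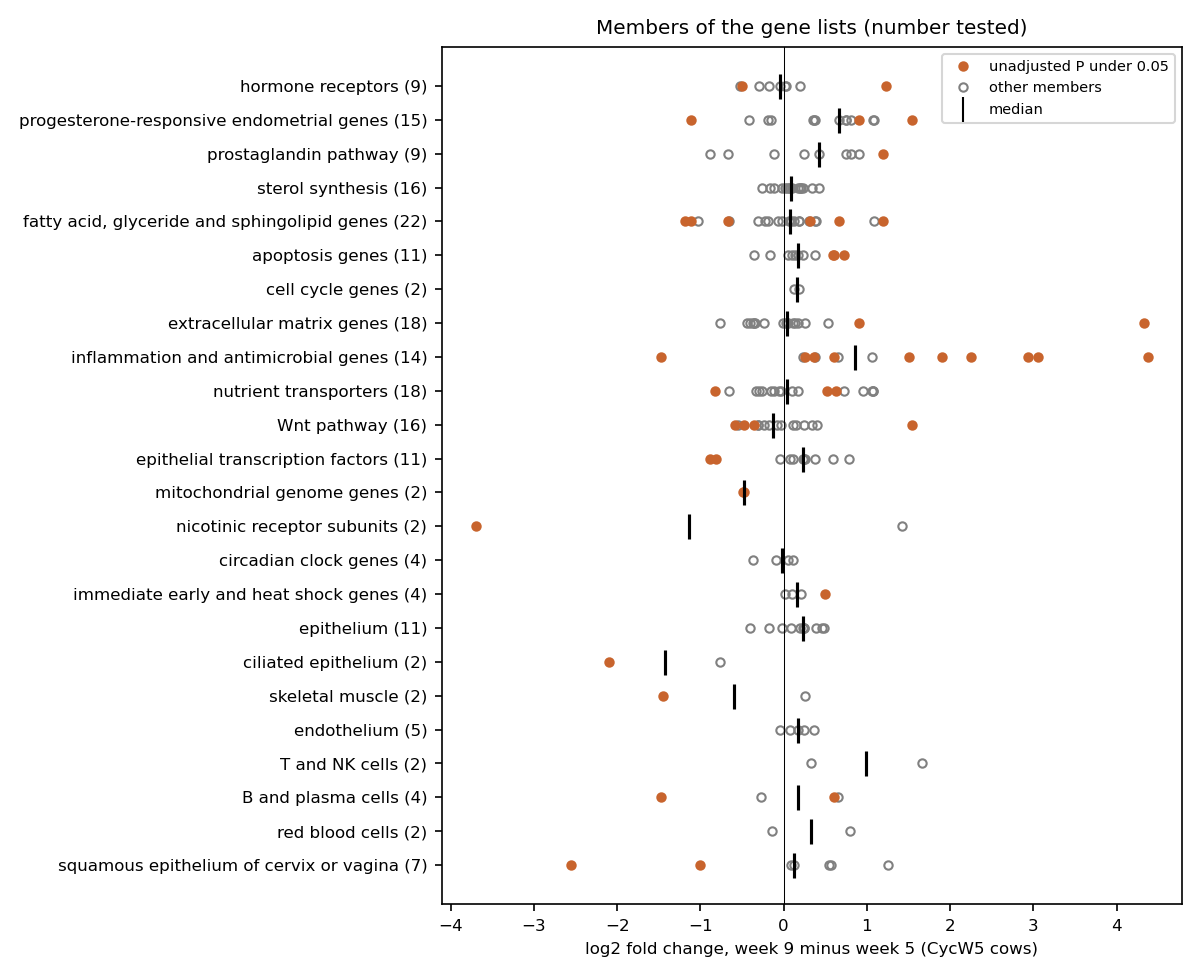
Log2 fold changes (week 9 minus week 5) of the tested members of each list with 2 or more of them, with orange points for an unadjusted P under 0.05 and a bar at the median. The inflammation list reaches furthest to the right with a median of 0.86, CHRNA1 stands alone at the left at -3.70, and sterol synthesis genes stay between -0.26 and 0.43.

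Cell type markers were counted in the same way. Of 20 epithelium markers 11 were tested, 8 with a positive log2 fold change (median 0.23), and 0 had an unadjusted P under 0.05. Their summed level was 900 to 2340 CPM at week 5 and 734 to 2280 CPM at week 9, with library 89 the lowest of the 20, so epithelium was present in every biopsy. PDGFRA, the stroma marker tested, was at 283 to 711 CPM at week 5 and 344 to 975 CPM at week 9 (log2FC 0.41 ± 0.17, BH P = 0.251, edgeR). The 5 endothelium markers tested summed to 248 to 478 CPM and 273 to 605 CPM (median log2 fold change 0.17). The 2 ciliated epithelium markers tested summed to 1.98 to 6.13 CPM and 0.287 to 4.25 CPM, and CCNO, needed to form cilia, had a log2FC of -2.10 ± 0.97 (BH P = 0.312). The 2 T and NK cell markers tested summed to 28.6 CPM in library 89, 8.49 CPM in library 83 and 6.19 CPM in library 87, and to 0.134 to 1.54 CPM in the other week 9 libraries, against 1.28 to 7.23 CPM at week 5. The 4 B and plasma cell markers tested summed to 51.7 to 118 CPM and 66.8 to 130 CPM. Of these, 2 had a positive and 2 a negative log2 fold change (median 0.17). BLNK, an adaptor of B cell receptor signalling, made up most of the sum, with means of 55.1 and 84.2 CPM. Its log2FC was 0.61 ± 0.24 and that of CXCL13 was -1.47 ± 0.71 (BH P = 0.214 and 0.334, edgeR). Mast cell and red blood cell markers, 1 and 2 tested, summed to at most 0.382 and 3.03 CPM. The 7 squamous markers tested, from cervix or vagina, summed to 9.88 to 34.1 CPM at week 5 and 16.4 to 56.9 CPM at week 9. Of the 7, 5 had a positive and 2 a negative log2 fold change (median 0.13). The 2 negative ones were CSTA and TGM1, with log2 fold changes of -2.55 and -1 (BH P = 0.133 and 0.316, edgeR). That of TGM1 was -1.71 without library 89 (edgeR BH P = 0.154). With library quality weights it was -2.08, and TGM1 was among 3181 genes called (limma-voom BH P = 0.00098). Skeletal muscle markers, of which RAPSN and MYOT were tested, summed to 0.363 to 2.26 CPM and 0.249 to 2.04 CPM. No smooth muscle marker could be matched. The part of these cell types in the results was not tested.

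Whether the differences between weeks were unlike those of the NoCycW5 cows was tested in the same fit. Over all genes, 7.82% had a difference between the changes of the groups with a BH P at or under 0.05. Of the 7 called genes, 2 did. ENSBTAG00000008077 had a log2 fold change of -1.07 in the CycW5 cows and 0.09 in the NoCycW5 cows (BH P of the difference 0.0154, edgeR), and ENSBTAG00000032304 had -0.83 and -0.09 (BH P of the difference 0.0372). For CHRNA1 the log2 fold changes were -3.70 and -1.77, a difference that did not pass the test (BH P = 0.187). FAM162A, DLG5 and CTNNB1 were not called in the NoCycW5 cows (BH P = 0.503, 0.593 and 0.426, edgeR). Their log2FC there was 0.25 ± 0.28, 0.11 ± 0.15 and 0.09 ± 0.09. The differences of -1.55, -0.75 and -0.44 passed (BH P = 0.0163, 0.0265 and 0.0263). At week 5 mean FAM162A was 27.9 CPM in NoCycW5 cows against 114 CPM in CycW5 cows. For DLG5 these means were 316 and 518 CPM, and for CTNNB1 673 and 932 CPM. The week 9 means lay closer together: 33.2 and 46.5 CPM for FAM162A, 340 and 333 for DLG5, 717 and 730 for CTNNB1. Of the 10 higher genes with a symbol and the smallest P, CHI3L1 was the one whose difference passed the test (BH P = 0.0263), with a log2 fold change of -0.33 in the NoCycW5 cows. PTP4A2, PDE3B, ASAH1, MREG, OCIAD2 and UBALD2 had log2 fold changes of 0.38, 1.16, 0.81, 0.96, 0.75 and 0.70 in the NoCycW5 cows, and KIAA0513, BCAR3 and CBLN3 had 0.45, 0.42 and 0.98. All 9 were called in the NoCycW5 cows, where 35.7% of all genes tested were called in either direction. The differences had BH P of 0.571 to 0.932 (edgeR). GPC3, NT5C3B, ARMT1, PDLIM4 and SST, lower but not called in the CycW5 cows, were called lower in the NoCycW5 cows. Their log2 fold changes there were -2.54, -0.60, -0.37, -0.63 and -3.27. SHQ1 had -0.07 and was not called there. Of the called genes that fell, CHRNA1 and ENSBTAG00000001367 (-0.81) were also called lower in the NoCycW5 cows. BLNK had log2 fold changes of 0.61 in the CycW5 cows and 1.63 in the NoCycW5 cows (BH P of the difference 0.0435).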

How the data were processed

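Endometrial mRNA was made into stranded, single-end libraries. After trimming, the authors used Hisat2 for alignment (UMD3.1 assembly) and FeatureCounts for the counts per Ensembl gene, which they deposited without normalization. Groups and weeks were taken from the labels. The software was R 4.3.3 with the packages sva 3.50.0, DESeq2 1.42.0, limma 3.58.1 and edgeR 4.0.16. The 43 CycW5 and NoCycW5 libraries were normalized by TMM and filtered with filterByExpr. The robust quasi-likelihood fit of edgeR had 1 mean for each group and week, and genes with a BH P of 0.05 or less were called. This step was tested on simulated data. Distances between libraries used log2 CPM with a prior count of 2.

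The genes named were those called, the 10 higher and 10 lower genes with a symbol and the smallest P, ESR1, PGR and OXTR, up to 4 members of each list with the smallest P (only those with an unadjusted P under 0.05 are given), and the most variable genes of each week with a mean of at least 10 CPM. Genes and lists were chosen with earlier results of these data known. Symbols came from the study's supplementary lists of 2729 genes, 2321 with a symbol, so nearly all other genes have none, and those named are genes the study had called in some comparison. The alternatives were other normalizations, tests, filters and covariates, and leaving out libraries. The cow and the microbiota terms of the study's model could not be fitted, because libraries are not linked to cows, and the study's smaller set of CycW5 cows was not identified among the libraries. Genome coordinates and sequences were not used here.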

Additional observations from a re-analysis of the deposited data

Results flagged for a closer look

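In 13 of 140 groups of 10 libraries tested (9.29%, where chance gives about 5%), 1 library lay far from the other 9, with a gap to its nearest neighbour, as a share of the group's range on the log2 CPM scale, above Dixon's critical value. Many of these genes were picked on the same libraries for a small P or a large spread, and the groups share libraries. The 5% therefore does not hold for them, and the count is a description. Library 89 was highest at week 9 in ENSBTAG00000012406 (gap 0.483 of the range), CBLN3 (0.5) and STK17A (0.595), and lowest in NT5C3B (0.51) and CTNNB1 (0.477). Library 72 was highest at week 9 in ENSBTAG00000032304 (0.542), ENSBTAG00000008077 (0.551) and DLG5 (0.468). Library 87 was lowest at week 9 in DKK1 (0.547). Library 57 was lowest at week 5 in PTP4A2 (0.538), CAMK2B (0.631) and RNASE9 (0.537) and highest in SST (0.565). RNASE9, a secreted protein of the ribonuclease A family, was at 0 in library 57 and at 1.99 to 37.4 CPM in the other week 5 libraries.

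In 8 of 60 named genes the log2 fold change in the CycW5 cows differed from that in the NoCycW5 cows (edgeR quasi-likelihood test of the difference, BH P at or under 0.05). Over all genes tested 7.82% did, and many of the 60 were named for a large change in the CycW5 cows, so the count is no result about them. The change in CycW5 minus the change in NoCycW5 cows was -0.74 for ENSBTAG00000032304, -1.16 for ENSBTAG00000008077, -1.55 for FAM162A, -0.75 for DLG5, -0.44 for CTNNB1 and -1.01 for BLNK. It was 4.72 for CHI3L1 and 6.6 for MMP9, in both of which library 89 was the highest of week 9.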

How the results depend on the processing

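No paired analysis was possible because the labels do not link libraries to cows, and the numbers given to libraries within a group only name them. The number of genes called was 0 with DESeq2 size factors, limma-voom, no filter, a filter of at least 1 CPM in at least 10 libraries, the 20 CycW5 libraries alone, the epithelium marker score as a covariate, or 2 surrogate variables. It was 235 with the DESeq2 Wald test and 3181 with library quality weights. Leaving out 1 library gave 0 to 383 calls. Of alternatives chosen after seeing the data, leaving out libraries 57 and 87 gave 36 calls, libraries 83 and 89 gave 0, and libraries 57, 87 and 89 gave 3. The number of the 7 called genes whose change differed from that in NoCycW5 cows was 5 with the DESeq2 Wald test, 0 with limma-voom or the epithelium score, 1 without libraries 83 and 89, and 1 to 4 with 1 library left out. The difference in spread was 0.051 to 0.153 with 1 library left out. Signs turned for CHI3L1 (-0.48 with quality weights, -0.098 with surrogate variables, -0.04 without libraries 83 and 89), CSF3 (-0.579 with quality weights, -1.569 without libraries 83 and 89), SLC22A4 (-0.131) and PDGFRA (-0.013) with surrogate variables, and OXTR (-0.873 to 0.259 with 1 library left out, positive without library 57, and -1.78 with quality weights, where it was called at a limma-voom BH P of 0.029). The cause was not tested. The smooth muscle covariate was not run, since no marker had an identifier, and a fit of fewer libraries could drop a named gene at the filter, which then has no value.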

Other observations

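Without library 72, 383 genes were called, 2.47% of those tested. Of these, 90 had a symbol, 34 higher and 56 lower at week 9. The list members called higher in that fit were ASAH1, SGMS1, FAS, STK17A, IL17RA, IL20RA, CHI3L1 and MMP9. Those called lower were ELOVL7, DEGS2, ACSL4, CTNNB1, FOXA3, RAPSN and CHRNA1. The fatty acid, glyceride and sphingolipid list thus had called members in both directions, ASAH1 and SGMS1 higher and ELOVL7 and DEGS2 lower. These genes were picked out after their values were seen, and the library left out was 1 of 20 tried.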
